A study of Mus musculus with 8 samples.

Results

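The genes described here encode the subunits of the 5 complexes of oxidative phosphorylation, together with the assembly factors and isoforms whose symbols share the same stems (Ndufa, Ndufb, Ndufc, Ndufs, Ndufv, Sdha to Sdhd, Uqcr, Cox4i to Cox8, Atp5 and the mtDNA-encoded mt-Nd, mt-Cyt, mt-Co and mt-Atp genes). They were taken by symbol, without pseudogenes named with -ps, from a sheet of 48440 gene rows. Of 105 rows with a matching symbol, 101 had a normalised read count of at least 10 in at least 4 of 8 libraries, and these are 101 of the 17523 genes tested. The 4 that did not pass are isoforms known from other tissues, with Cox6a2 at 0 to 5, Cox8b at 0 or 1 and Cox7b2 and Cox8c at 0 in all libraries. The lowest gene that passed was Cox4i2, at 17 to 41. Of the 101, 88 are nuclear genes and 13 are the protein-coding genes of mtDNA.

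RNA was measured in whole small intestine adenomas of mice on a C57BL/6 background, with 1 library per mouse. All mice carried ApcMin/+, a mutant allele that cuts short the tumour suppressor Apc and leads to intestinal polyps. In 4 of them 14-3-3σ, encoded by Sfn, was intact, and the other 4 were ApcMin/+/14-3-3σ-/- and are called knockout here. The ApcMin/+ mice were 256, 256, 266 and 282 days old and the knockout mice 144, 144, 146 and 148 days old, so age and genotype cannot be told apart. The values come from tissue with many cell types, in which fewer cells of a type and less RNA per cell cannot be told apart either.

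Complexes I to IV form the respiratory chain of the inner mitochondrial membrane, which passes electrons from NADH and succinate to oxygen and, except at complex II, pumps protons. Complex V, the ATP synthase, uses the proton gradient to make ATP. Complexes I, III, IV and V are built from subunits of both genomes, while complex II is wholly nuclear. In the intestinal epithelium mitochondrial content rises as crypt cells differentiate into absorptive enterocytes.

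Sfn was at 6585 to 15968 in the ApcMin/+ libraries and at 0 or 1 in the knockout libraries (log2 difference -12.81, two-sided exact permutation p = 0.0286 over 70 arrangements, the smallest that 4 against 4 libraries allow). The summed values of a library were 34182800 to 46707800, and the depth before normalisation is unknown. A knockout column whose mouse number belongs to an ApcMin/+ mouse in the labels is called the unnumbered knockout library. Xist, which coats the inactive X chromosome, was at 30984 and 12334 in ApcMin/+ replicates 2 and 3 and at 34488 in the unnumbered knockout library, and at 18 or below in the other 5. These 5 held the Y-linked Ddx3y at 1435 to 2132.

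Nuclear genes of every complex had a lower median in the knockout adenomas, and mtDNA-encoded genes a higher one, but almost no single gene passed the test across all genes. The median log2 fold change, knockout minus ApcMin/+ on the log2(value + 1) scale, was -0.39 for the 36 nuclear subunits of complex I and -0.18 for the 4 of complex II. It was -0.33 for the 8 of complex III, -0.44 for the 11 of complex IV and -0.30 for the 15 of complex V. It was 0.23 for the 13 mtDNA-encoded genes and -0.07 for all genes tested. Single ApcMin/+ libraries moved some of these medians by over 1.5 times. The complex II median was -0.12, -0.27, -0.31 and -0.02 without ApcMin/+ replicates 1 to 4 in turn, and that of complex III was -0.19 without replicate 4. The mtDNA-encoded median was 0.35 without replicate 1 and 0.11 without replicate 2. Fold changes were below 0 for 83 of the 88 nuclear genes and 3 of the 13 mtDNA-encoded genes, against 59.0% of all genes. With limma at an adjusted p under 0.05, Ndufs5 was the only member called, lower in the knockout, against 0.331% of all genes called, 0.143% lower and 0.188% higher. With 1 gene in 101, the members' share of calls was not read as different from that of all genes.

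At an unadjusted limma p under 0.05, 37 of the 88 nuclear genes were lower in the knockout, against 11.6% of all genes tested. At the same threshold 1 nuclear gene, Ndufaf4, and 1 mtDNA-encoded gene, mt-Atp8, were higher, against 7.39% of all genes. All knockout libraries lay below all ApcMin/+ libraries for 19 of the 88 nuclear genes, against 10.6% of all genes, and above them for Ndufaf4 and mt-Atp8, against 5.50%. Of the 19, 11 were complex I subunits, 4 complex I assembly factors, 2 complex III subunits, 1 a complex V subunit (Atp5j2) and 1 the supercomplex factor Cox7a2l.

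**Figure D1:**
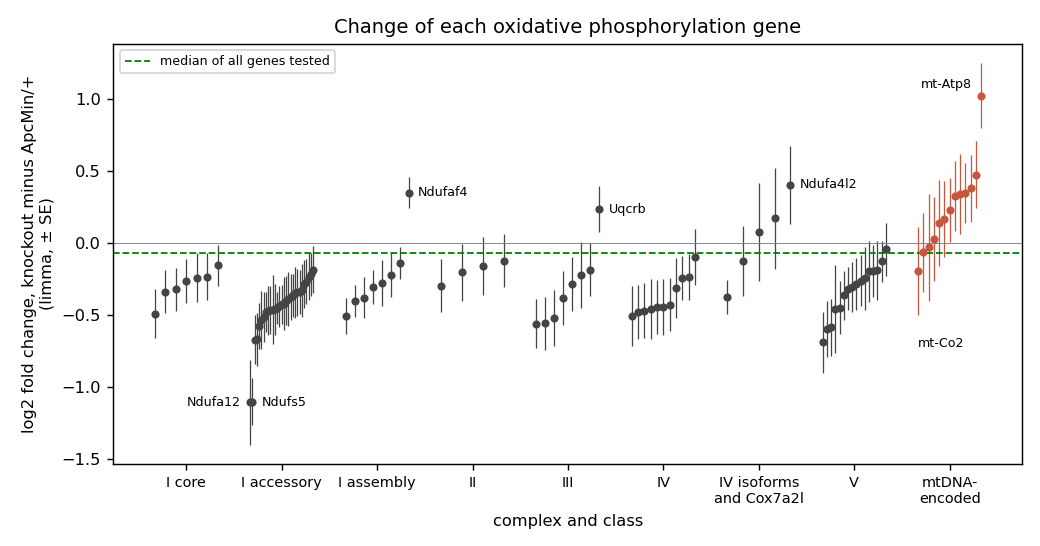
Log2 fold change of each of the 101 genes, knockout minus ApcMin/+ (y axis, limma, bars are the standard error), grouped by complex and class (x axis), with the median of all genes tested, -0.07, as a dashed line. All points of the complex I core and accessory subunits, complex II, complex IV subunits and complex V lie below 0, with Ndufs5 and Ndufa12 lowest, and mt-Atp8 at 1.03 is highest.

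Complex I, which oxidises NADH, was represented by 7 nuclear core subunits and 29 accessory subunits, all with a fold change below 0. The core subunits, which carry the flavin and the iron-sulphur clusters, had a median of -0.26 and the accessory subunits one of -0.42. Among the core subunits, Ndufs7 was at 3465, 2330, 2391 and 3696 in ApcMin/+ replicates 1 to 4 and at 2155, 2235, 1887 and 2024 in the unnumbered knockout library and knockout replicates 2 to 4 (log2 fold change -0.49 ± 0.172 SE, limma adjusted p = 0.195). Its groups did not overlap, whereas those of the other 6 core subunits did.

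Ndufs5, an accessory subunit on the intermembrane-space side of complex I, was the only member to pass, but its call and the size of its difference did not hold once its near-identical copy BC002163, described further on, was added to it. ApcMin/+ libraries held 2239, 1579, 1683 and 2305 normalised reads of it. In the knockout it was 864, 1058, 775 and 907, so that every knockout library lay below every ApcMin/+ library (log2 fold change -1.10 ± 0.164 SE, limma adjusted p = 0.0406). For the sum with the copy the groups overlapped and the fold change was -0.45 (adjusted p = 0.198). Ndufs5 (chr4:123712710-123718202, GRCm38) is 9.88 Mb from Sfn on the same chromosome. Leaving out any single knockout library ended the call, with limma adjusted p values of 0.0723 to 0.143, as did the 6 libraries of a shared name prefix (0.139) and array weights (0.375).

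Ndufa12, an accessory subunit of the matrix arm that takes the place of the assembly factor Ndufaf2, had the lowest fold change of complex I. It was at 3255, 2630, 2557 and 4018 in ApcMin/+ and at 1536, 2469, 944 and 1143 in the knockout (log2 fold change -1.11 ± 0.294 SE, limma adjusted p = 0.136). The groups did not overlap, but knockout replicate 2 lay just under the lowest ApcMin/+ library. Ndufa6, which docks the mitochondrial acyl carrier protein, was at 3942, 3479, 3516 and 4098 against 2399, 3047, 2770 and 2812 (-0.45 ± 0.112 SE, adjusted p = 0.125). Its groups were also separate.

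Of the 8 assembly factors, 7 had fold changes below 0. Ndufaf3 and Ndufaf4, which act together in assembly of the quinone-binding module, differed in opposite directions. Ndufaf3 was at 709, 578, 600 and 704 in ApcMin/+ and at 464, 476, 437 and 439 in the knockout (-0.51 ± 0.124 SE, limma adjusted p = 0.124). Ndufaf4 was at 981, 932, 903 and 1007 in ApcMin/+ and at 1375, 1096, 1230 and 1188 in the knockout (0.35 ± 0.109 SE, adjusted p = 0.161). Neither gene's groups overlapped, and neither passed the threshold.

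Complex II, which oxidises succinate and belongs to the citric acid cycle as well, had the smallest nuclear median, and its groups overlapped for all 4 genes. The flavoprotein gene Sdha was at 20391, 15744, 13821 and 26186 in ApcMin/+ and at 17563, 15434, 15750 and 17552 in the knockout (-0.16 ± 0.204 SE, limma adjusted p = 0.701). Sdhb, the iron-sulphur subunit, was at -0.20, and the membrane anchors Sdhc and Sdhd at -0.29 and -0.12 on the log2 scale, with adjusted p values of 0.605, 0.416 and 0.754. For all 4 genes ApcMin/+ replicates 1 and 4 were the highest libraries.

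In complex III, which passes electrons from ubiquinol to cytochrome c, small subunits differed most. Uqcrh, the hinge protein beside cytochrome c1, was at 10518, 7434, 7814 and 11088 in ApcMin/+ and at 5793, 7196, 5357 and 6428 in the knockout (-0.56 ± 0.169 SE, limma adjusted p = 0.156). Uqcr10 and Uqcr11, 2 small transmembrane subunits, were at -0.56 and -0.52 (adjusted p 0.177 and 0.217), with separate groups for Uqcr10 and overlapping groups for Uqcr11. Uqcrb was the only subunit gene of the complex with a higher mean in the knockout. It was at 3910, 2262, 3016 and 2872 against 3406, 3603, 3363 and 3579 (0.24 ± 0.159 SE, adjusted p = 0.443), and ApcMin/+ replicate 1 was the highest library of all.

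Complex IV, cytochrome c oxidase, has subunits with tissue isoforms, and the isoforms typical of most tissues were at higher levels than their counterparts. Cox6b1, which faces the intermembrane space, was at 12090, 7651, 7960 and 13326 in ApcMin/+ and at 6402, 8042, 6075 and 7739 in the knockout (-0.50 ± 0.210 SE, limma adjusted p = 0.248). The groups of all 11 subunit genes overlapped. Cox4i1, Cox6a1, Cox6c, Cox7a2 and Cox8a were at -0.47, -0.46, -0.48, -0.45 and -0.43 on the log2 scale, with adjusted p values of 0.237, 0.282, 0.232, 0.251 and 0.254.

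Their counterparts were low. Cox4i2, known from lung and hypoxic cells, was at 38, 17, 29 and 22 against 22, 41, 26 and 29, where Cox4i1 was at 15450 to 31403. Cox6b2, known from testis, was at 41 to 101, and Cox7a1, known from heart and skeletal muscle, was at 293 to 528. Neither the direction of Cox4i2 nor those of Cox6b2 and Cox7a1 held in every alternative processing. Ndufa4l2, a paralogue of the complex IV subunit Ndufa4 that is induced by hypoxia-inducible factor, was at 47, 66, 59 and 56 against 52, 106, 77 and 76 (0.41 ± 0.272 SE, adjusted p = 0.441). Cox7a2l, which links complexes III and IV in supercomplexes, was at 8579, 7493, 7580 and 9055 against 6028, 6812, 5590 and 6824 (-0.37 ± 0.119 SE, adjusted p = 0.165), and its groups were separate.

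In complex V the largest differences were in small subunits of the membrane part and in the epsilon subunit. Atp5k, subunit e, was at 2679, 1631, 1842 and 2684 in ApcMin/+ and at 1100, 1675, 1171 and 1485 in the knockout (-0.69 ± 0.212 SE, limma adjusted p = 0.160). Atp5j2, subunit f, and Atp5e, the epsilon subunit, were at -0.59 and -0.60 (adjusted p 0.184 and 0.170). Atp5a1 and Atp5b, which encode the alpha subunit and the catalytic beta subunit and are the most abundant nuclear transcripts of the complex per kilobase with Atp5g3, were at -0.19 and -0.20 (adjusted p 0.649 and 0.646). Atp5s, the coupling factor B gene, was at -0.04, and its sign turned under median-ratio scaling.

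The 13 mtDNA-encoded genes were far more abundant than the nuclear ones. Their median mean level was 75790 normalised read counts per kilobase of spliced transcript in ApcMin/+ and 77130 in the knockout, against 4548 and 3270 for the 88 nuclear genes. No mtDNA-encoded gene passed the test. All 7 subunits of complex I had fold changes above 0, from 0.03 (mt-Nd4) to 0.48 (mt-Nd6), with a median of 0.34. mt-Nd6, encoded on the opposite strand from the other mtDNA protein genes, was at 31334, 15572, 21010 and 22227 in ApcMin/+ and at 33517, 23819, 30555 and 35055 in the knockout (0.48 ± 0.233 SE, limma adjusted p = 0.304). The groups overlapped through ApcMin/+ replicate 1.

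mt-Atp8, a small membrane subunit of the ATP synthase, was the mtDNA-encoded gene with separate groups. It was at 3285, 1682, 2504 and 1994 in ApcMin/+ and at 3917, 3973, 5802 and 5266 in the knockout (log2 fold change 1.03 ± 0.227 SE, limma adjusted p = 0.107). mt-Atp6, which overlaps mt-Atp8 in mtDNA and shares its transcript, was at 0.14 ± 0.297 SE (adjusted p = 0.828), a smaller difference than that of mt-Atp8, though the test of that contrast was not run. mt-Co2, a catalytic subunit of complex IV, was the lowest, at 247395, 115591, 154930 and 187076 against 162890, 137829, 132629 and 163259 (-0.19 ± 0.304 SE, adjusted p = 0.762). mt-Co1 and mt-Cytb were at -0.03 and -0.06.

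**Figure D2:**
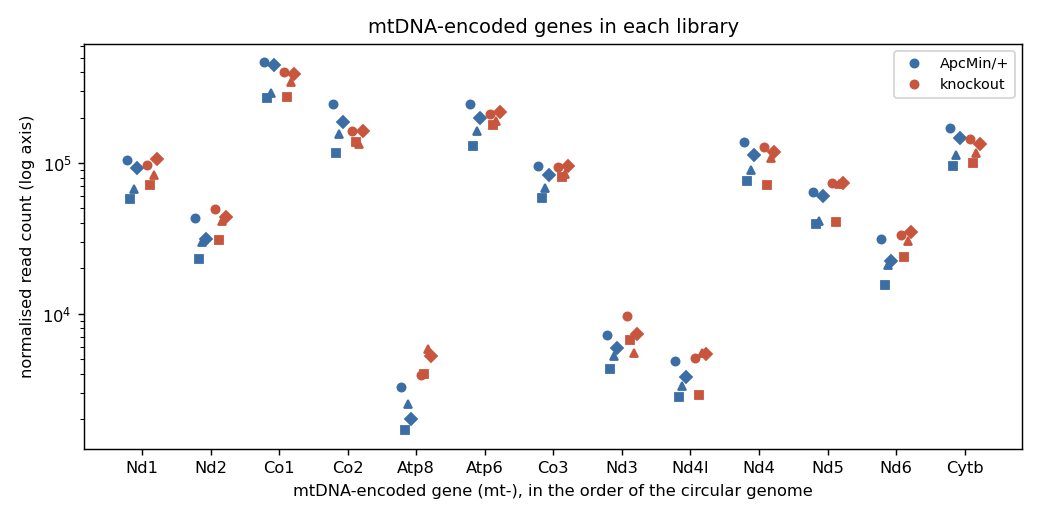
Normalised read count (y axis, log scale) of the 13 mtDNA-encoded genes in each library (x axis, genes in their order on mtDNA), ApcMin/+ in blue and knockout in red, with circles, squares, triangles and diamonds for replicates 1 to 4 and the red circle for the unnumbered knockout library. The groups are separate for mt-Atp8 only, and ApcMin/+ replicate 2 is the lowest ApcMin/+ library for every gene shown.

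The difference between the mean log2 values of the mtDNA-encoded and nuclear genes was 3.92, 3.48, 3.76 and 3.48 in the ApcMin/+ libraries in order (mean 3.66 ± 0.215 SD, n = 4). It was 4.49, 3.76, 4.38 and 4.33 in the knockout libraries, the unnumbered one first (mean 4.24 ± 0.326 SD, n = 4). Knockout replicate 2 lay inside the ApcMin/+ range. As a share of all summed values, mtDNA-encoded genes were at 2.46% to 3.88% in ApcMin/+ and 2.82% to 3.76% in the knockout, while nuclear members were at 1.34% to 1.61% and 1.16% to 1.35%. The 2 mitochondrial ribosomal RNAs, in a list added after the values were seen, were at 0.57 (mt-Rnr1) and 0.41 (mt-Rnr2; limma adjusted p 0.170 and 0.303).

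Several of these genes have near-identical copies elsewhere in the genome, which can share reads with them. Copies were sought by shared 31-base words in GENCODE M21 transcripts, with at least 20% of the copy's words shared. This limit also admits less similar copies. A copy without a transcript there, or without a row in the sheet, could not be found. No copy was found for mt-Atp8, which does not exclude one. Copies were found for 33 members, and for 25 of them the copies reached 10 in a library. The copies held over 20% of the summed value in either genotype for 8 members. How the authors divided reads between copies is not given in the sources used here, so the values of these genes are uncertain one by one. These gene and copy pairs were chosen after their values were seen.

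Stretches of 3 pairs are shown, from those where the value of the copy was several times higher in most knockout libraries than in any ApcMin/+ library. The same held for Gm10925 and Gm28661, described further on, and for Gm11966, a copy of Atp5j. Gm11966 was at 40, 13, 32 and 11 in ApcMin/+ and at 333, 73, 199 and 204 in the knockout (limma adjusted p = 0.0817). Each stretch is 150 bases of GENCODE M21 on GRCm38, 5′ to 3′ on the gene's strand. It is coding sequence for the member and the aligned bases for the copy, a pseudogene. Capitals mark the bases that differ within the stretch. BC002163 lies at chr16:42955631-42955949, Ndufa12 at chr10:94198720-94221443, Gm15920 at chr5:130188395-130188796, mt-Nd3 at chrM:9459-9806 and Gm28438 at chr1:24612775-24613119.
Ndufs5: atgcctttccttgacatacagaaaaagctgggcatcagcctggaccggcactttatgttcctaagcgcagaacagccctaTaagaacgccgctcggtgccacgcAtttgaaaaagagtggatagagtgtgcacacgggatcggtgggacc
BC002163: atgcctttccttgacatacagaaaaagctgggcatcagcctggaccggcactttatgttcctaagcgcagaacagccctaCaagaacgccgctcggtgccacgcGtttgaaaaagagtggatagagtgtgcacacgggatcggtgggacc
Ndufa12: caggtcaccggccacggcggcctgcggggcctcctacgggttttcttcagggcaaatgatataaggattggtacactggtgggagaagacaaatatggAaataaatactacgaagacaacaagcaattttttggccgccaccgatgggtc
Gm15920: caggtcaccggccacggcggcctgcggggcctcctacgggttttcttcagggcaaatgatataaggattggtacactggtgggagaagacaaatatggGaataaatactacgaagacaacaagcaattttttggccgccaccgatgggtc
mt-Nd3: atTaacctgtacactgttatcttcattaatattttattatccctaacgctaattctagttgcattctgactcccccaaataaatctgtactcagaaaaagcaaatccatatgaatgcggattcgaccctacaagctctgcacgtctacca
Gm28438: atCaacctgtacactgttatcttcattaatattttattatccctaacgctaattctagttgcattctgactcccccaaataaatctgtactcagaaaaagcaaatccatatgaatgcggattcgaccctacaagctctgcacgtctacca

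Over the aligned coding bases, Ndufs5 and BC002163 differed at 2 of 318, Ndufa12 and Gm15920 at 2 of 399 and mt-Nd3 and Gm28438 at 1 of 345. BC002163, a processed pseudogene, was at 0, 13, 2 and 1 in ApcMin/+ and at 419, 606, 538 and 527 in the knockout (limma adjusted p = 0.00539). It was the only one of 22 copies tested that passed, against 0.188% of all genes called higher. The sum of Ndufs5 and BC002163 was 2239, 1592, 1685 and 2306 in ApcMin/+ and 1283, 1664, 1313 and 1434 in the knockout. The groups then overlapped through knockout replicate 2, and the standard error of the fold change of -0.45 was 0.158.

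Gm15920 was at 12, 10, 24 and 2 in ApcMin/+ and at 507, 24, 757 and 1234 in the knockout, low in knockout replicate 2 where Ndufa12 was highest of the knockout libraries. The sum with Ndufa12 was at -0.53 ± 0.181 SE in place of -1.11 (limma adjusted p = 0.187). Gm28438 was at 406, 157, 479 and 80 in ApcMin/+ and at 1848, 2406, 8183 and 4141 in the knockout (adjusted p = 0.0543). mt-Nd3 alone was at 7189, 4314, 5280 and 5929 against 9609, 6667, 5477 and 7331 (0.35 ± 0.209 SE, adjusted p = 0.390). Its sum with Gm28438 was at 7595, 4471, 5759 and 6009 against 11457, 9073, 13660 and 11472 (0.95 ± 0.187 SE, adjusted p = 0.095), with separate groups.

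**Figure D3:**
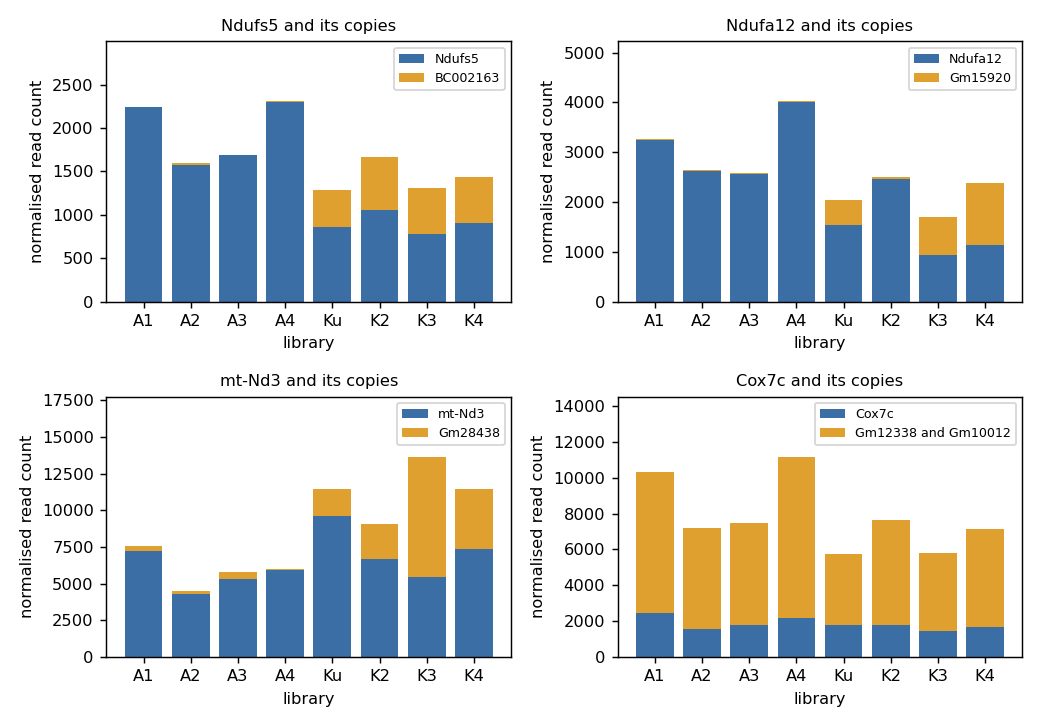
Normalised read count (y axis, from 0) of 4 genes (blue) and their copies (orange, stacked) in ApcMin/+ replicates 1 to 4 (A1 to A4), the unnumbered knockout library (Ku) and knockout replicates 2 to 4 (K2 to K4). The copies of Ndufs5, Ndufa12 and mt-Nd3 are larger in most knockout libraries, while for Cox7c they hold 78.0% of the sum in ApcMin/+ and 74.7% in the knockout.

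Gm28438 belongs to a block of mtDNA-derived sequence on chromosome 1. In that block Gm10925, identical to mt-Atp6 over 678 aligned bases, was at 7613, 9024, 8682 and 6835 in ApcMin/+ and at 41957, 14816, 31745 and 35392 in the knockout (limma adjusted p = 0.0564). Gm28661, identical to mt-Co2 over 681 bases, was at 65 to 727 in ApcMin/+ and at 2783 to 8859 in the knockout (adjusted p = 0.0609). Gm28437, identical to mt-Co3 over 783 bases, had nearly the same value as mt-Co3, at 0.9985 to 1.004 times it in every library. Among nuclear members the share held by copies went from 0.205% in ApcMin/+ to 36.7% in the knockout for Ndufs5 and from 0.384% to 29.3% for Ndufa12. It was 94.9% in both genotypes for Atp5g2, 60.2% and 54.7% for Ndufb4 and 21.9% and 16.5% for Atp5l. With copies added, the medians were -0.39, -0.18, -0.33, -0.45 and -0.28 for nuclear subunits of complexes I to V and 0.28 for mtDNA-encoded genes, and no member passed.

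The ApcMin/+ adenomas were themselves divided. The mean log2 value of the 36 nuclear complex I subunits was 11.79, 11.34, 11.37 and 11.91 in ApcMin/+ replicates 1 to 4 and 11.11, 11.35, 11.00 and 11.24 in the unnumbered knockout library and knockout replicates 2 to 4. For complex V it was 13.17, 12.71, 12.70 and 13.35 against 12.52, 12.77, 12.49 and 12.75. ApcMin/+ replicates 2 and 3, the ApcMin/+ libraries with Xist, lay near the knockout libraries, and replicates 1 and 4 above all others.

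ApcMin/+ replicates 1 and 4 both exceeded replicates 2 and 3 for 81 of the 88 nuclear genes, or 92.0%, against 36.4% of all genes tested. The median nuclear log2 difference between knockout and ApcMin/+ was -0.60 against replicates 1 and 4 and -0.09 against replicates 2 and 3. Over all genes tested the median was -0.11 and -0.03 in the same order. For the mtDNA-encoded genes it was -0.02 and 0.50, so the mtDNA-encoded median lay above the nuclear one against either set of ApcMin/+ libraries. In the 5 libraries with Xist under 1000, an alternative added after the data were seen, 60 of the 88 nuclear genes were called lower (limma adjusted p under 0.05), against 8.45% of all genes, and mt-Atp8 was called higher, against 4.07%. That comparison leaves out the ApcMin/+ libraries with the lower nuclear values and rests on 2 ApcMin/+ libraries. The 6 libraries that share a name prefix were ApcMin/+ replicates 1 and 2 and all knockout libraries. The other prefix occurred only in ApcMin/+ replicates 3 and 4, so prefix and genotype cannot be fully told apart. Within the 6, no member was called, and the medians were -0.35, -0.14, -0.29, -0.40 and -0.27 for complexes I to V and 0.24 for mtDNA.

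**Figure D4:**
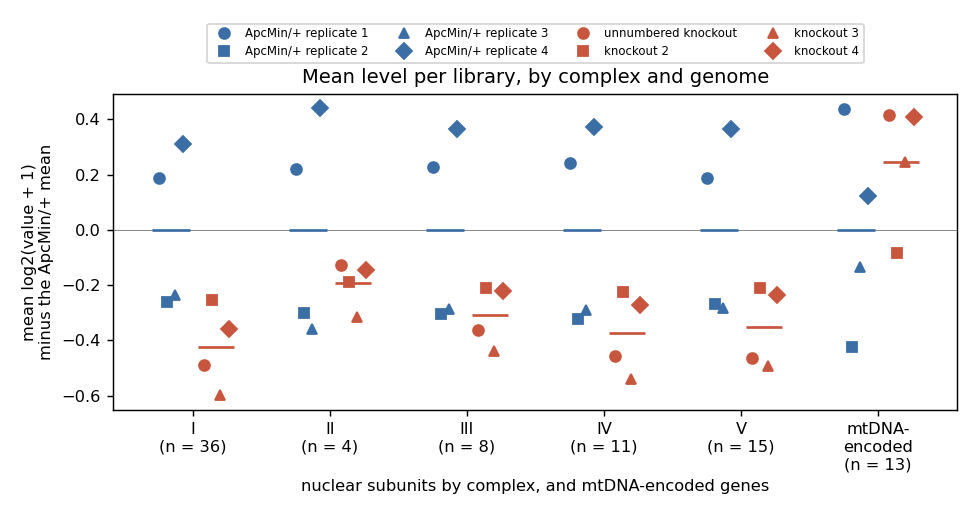
Mean log2(value + 1) of each set of genes in each library, minus its ApcMin/+ mean (y axis), for the nuclear subunits of complexes I to V and the mtDNA-encoded genes (x axis, n is the number of genes, lines are group means). ApcMin/+ replicates 1 and 4 stand above all knockout libraries in each nuclear set, while replicates 2 and 3 lie within or near the knockout range.

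Some of the cell type markers divided the ApcMin/+ libraries in the same way. The summed values of 16 absorptive enterocyte markers were 569661, 210397, 206322 and 708542 in ApcMin/+ replicates 1 to 4 and 426890 to 649722 in the knockout, so ApcMin/+ replicates 2 and 3 were low in them as in the nuclear members. The knockout sums lay within the ApcMin/+ range, but the mean log2 value of the 16 markers was 14.59 and 14.50 in the unnumbered knockout library and knockout replicate 3, above the ApcMin/+ maximum of 14.29. Of the 16, 15 had a fold change above 0 and none passed, though for Sis and Enpep every knockout library lay above every ApcMin/+ library. Sis, the brush-border sucrase-isomaltase, was at 2662 to 12312 in ApcMin/+ and 21234 to 42778 in the knockout (log2 fold change 2.37, limma adjusted p = 0.0817). The 10 general epithelial markers had the same division, with sums of 730447, 432928, 440816 and 790408 in ApcMin/+ and 472081 to 577252 in the knockout. The sums of fibroblast and crypt markers ran the opposite way within ApcMin/+. The 9 fibroblast markers summed to 29180, 40621, 40515 and 30050 in ApcMin/+ and 42123 to 84677 in the knockout, with all 9 fold changes above 0 and none past the threshold. The 8 crypt markers summed to 44794, 60200, 57818 and 44338 in ApcMin/+ and 46750 to 52601 in the knockout. Nkd1 (11045, 21604, 20451 and 10612 in ApcMin/+) and Axin2 (4778, 9132, 8166 and 4973) made up much of that order. Cd44 (11332, 9006, 9449 and 10968) and Lrig1 (4563, 4449, 4155 and 5296) were instead higher in replicates 1 and 4. Olfm4 was highest in replicate 1. In the knockout Olfm4 was higher (1.44, limma adjusted p = 0.0817) and Ascl2 lower (-0.68, adjusted p = 0.130), with separate groups.

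The leukocyte markers summed to 29671, 28913, 23239 and 40490 in ApcMin/+, with replicates 1 and 2 close together, against 38399 to 52870. Jchain made up most of these sums, at 27144, 25948, 20765 and 37120 in ApcMin/+ and 35867 to 49680 in the knockout. Of the 7 leukocyte markers tested, 5 had fold changes above 0 and 2 below, none past the threshold, and their median was 0.07. The 6 endothelial markers summed to 5378, 11101, 7853 and 7064 in ApcMin/+, against 7625 to 12450 in the knockout, all with fold changes above 0. The lower sums of ApcMin/+ replicates 1 and 4 came from Cdh5 (1402, 5281, 2857 and 2519), Tek and Vwf. Pecam1 (1318, 1310, 1248 and 1519) and Lyve1 (172, 141, 141 and 176) were instead higher in replicates 1 and 4. Kdr was highest in replicate 4. Lyve1, a marker of lymphatic endothelium, rose in the knockout (1.19 ± 0.189 SE, limma adjusted p = 0.0497). Smooth muscle markers, high in ApcMin/+ replicates 1 and 3, summed to 15428 to 25621 against 12375 to 24769 and striated muscle markers, with 5 of 9 under 10 everywhere, to 544 to 736 against 305 to 512. All 8 smooth muscle and all 4 tested striated muscle markers had fold changes below 0 (medians -0.22 and -0.80), none past the threshold. Adipocyte markers, with 4 of 6 under 10 everywhere, summed to 2931, 1433, 1374 and 3686 in ApcMin/+, high in replicates 1 and 4, against 1587 to 2793. That order came from Cidec alone, at 2484, 870, 853 and 3182 in ApcMin/+. Fabp4 did not follow it, at 444, 559, 518 and 502. The part of these cells in the values of the oxidative phosphorylation genes was not tested.

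Transcript length moved with the fold changes as well. The nuclear members are short, with a median spliced length of 921 bases against 2972 for 14692 other nuclear protein-coding genes. Among other coding genes of 750 bases or less the median log2 fold change was -0.30, and among those over 3000 bases it was 0.01. The 36 members of 750 bases or less had a median of -0.45, and the 18 members over 1000 and up to 1500 bases one of -0.30, against -0.21 for other genes of that length. The 5 members over 3000 bases had a median of -0.26. Across genes, which are not independent replicates, Spearman's rho of fold change with length was 0.423 over the 88 members and 0.311 over the other genes. The part of length in the difference was not tested. Nor was its part in the differences between complexes, between core and accessory subunits, or between small and large subunits.

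**Figure D5:**
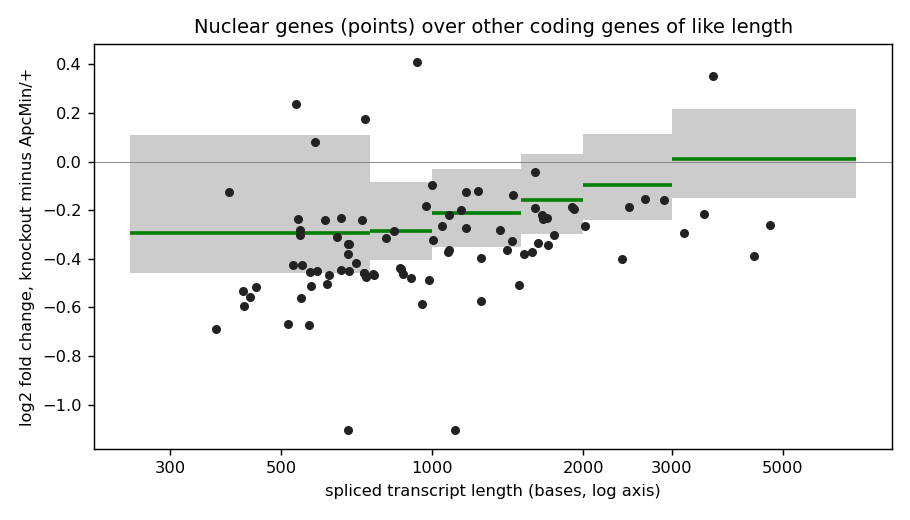
Log2 fold change of the 88 nuclear members (points) against spliced transcript length (x axis, log scale), over the median (green lines) and the middle 50% (grey) of other nuclear protein-coding genes in 6 length classes. The green line climbs from -0.30 in the shortest class to 0.01 in the longest, and most points lie below it.

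Other genes of mitochondrial biogenesis were taken from lists of assembly factors, carriers and regulators, and none of their members passed. The 48 Mrpl and 29 Mrps genes, which encode the mitochondrial ribosome that translates mtDNA messages, had medians of -0.30 and -0.28, with 47 and 29 fold changes below 0. Cox17, the copper chaperone of complex IV, was at 2634, 2026, 2145 and 2642 in ApcMin/+ and at 1348, 1702, 1392 and 1414 in the knockout (-0.69 ± 0.133 SE, limma adjusted p = 0.0941), with separate groups. Timm8a1, a small translocase of the intermembrane space, was at 359, 330, 356 and 300 against 648, 494, 715 and 523 (0.81 ± 0.159 SE, adjusted p = 0.0950), the other way.

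The assembly lists had medians of -0.19 (complex I, factors not named Ndufaf), -0.15 (complex II), -0.30 (complex III), -0.15 (complex IV) and -0.18 (complex V). The 25 genes of the citric acid cycle and pyruvate dehydrogenase had a median of -0.13, those of cytochrome c and coenzyme Q synthesis -0.23, and those of mtDNA replication and transcription -0.12. Inner membrane translocases were at -0.19, the Timm and Tomm families at -0.25 and -0.36, carriers at -0.17 and antioxidant genes at -0.17. The 16 nuclear regulators of mitochondrial genes had a median of 0.06, with 7 below 0.

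The promoters of nuclear respiratory genes are known for sites of NRF1, of ETS factors such as GABP (NRF2) and of YY1. The letters GCATGCGC (NRF1), CCGGAAG (ETS) and ATGGCGG (YY1) were searched on both strands in the 300 bases from 250 before to 50 after the start, for the 74 of 88 nuclear members with an entry in RefSeq on GRCm38.p6. NRF1 letters stood in 12 of the 74 members and 3.05% of 27025 genes, ETS letters in 17 and 9.93%, and YY1 letters in 12 and 4.69%. Members with any of them, 47.3% against 15.80% of all genes, had a median log2 fold change of -0.40, and those with none one of -0.34. Both NRF1 and ETS letters stood in Atp5k, Atp5l, Cox6a1, Sdhb and Uqcr11 (log2 fold changes -0.69, -0.30, -0.46, -0.20 and -0.52). Of these, the promoters of Atp5k (chr5:108434350-108434649) and Cox6a1 (chr5:115348909-115349208) are shown as examples, with the letters in capitals. In each, the NRF1 matches on the 2 strands overlap.
Atp5k: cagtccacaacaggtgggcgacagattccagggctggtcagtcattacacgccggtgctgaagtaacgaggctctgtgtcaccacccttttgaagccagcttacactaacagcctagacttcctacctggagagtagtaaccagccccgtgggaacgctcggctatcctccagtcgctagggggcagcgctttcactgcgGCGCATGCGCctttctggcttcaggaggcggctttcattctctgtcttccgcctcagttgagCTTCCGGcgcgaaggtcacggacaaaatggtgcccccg
Cox6a1: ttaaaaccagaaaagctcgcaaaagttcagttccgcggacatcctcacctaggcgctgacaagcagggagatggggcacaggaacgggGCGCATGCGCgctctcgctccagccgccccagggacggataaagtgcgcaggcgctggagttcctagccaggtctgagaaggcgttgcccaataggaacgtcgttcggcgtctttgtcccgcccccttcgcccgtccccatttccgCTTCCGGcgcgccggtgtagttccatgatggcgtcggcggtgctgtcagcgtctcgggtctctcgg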

How the data were processed

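RNA-seq was deposited as 1 sheet of normalised read counts, a score and not raw counts: per the file headers, the values had been through RUVs, which subtracts factors estimated among replicates. Per the submitters' processing notes the build is mm10, and libraries were strand-specific, per the labels' protocols. The sources used here do not give the aligner, counting or annotation, so depth is unknown and no counting interval is given. Left out were 27 rows with date-like names, and 0 columns belonged to other samples. The unnumbered knockout column has a group but no replicate number.

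The test, on genes reaching 10 in 4 or more libraries, used limma 3.58.1 in R 4.3.3 (lmFit, eBayes with trend) on log2(value + 1), a scale that understates changes of low genes, with Benjamini-Hochberg adjustment over all 17523 genes and a threshold of 0.05. Of 6 directions among replicates, 1 had been removed by the normalisation (singular value 0.0954 against 53.8), and it entered as a covariate, leaving 5 residual degrees of freedom. The model was tested on simulated data. Lengths and positions came from GENCODE M21. Each library is a separate mouse.

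The members and lists were chosen with earlier results of these data known. Named genes were those called, those with the smallest p and the lowest and highest fold change per complex, the complex II genes and the complex IV isoform pairs. Genes of copies, Ndufs7, Atp5a1, Atp5b, the mtDNA-encoded genes beside these and the list genes were added once values were known. The alternatives comprised pseudocounts, filters, scalings, the 6 libraries of a shared name prefix, array weights, no covariate and leaving out each library. The Xist and copy alternatives were added after the data were seen.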

Additional observations from a re-analysis of the deposited data

How the results depend on the processing

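Over 20 alternatives, the medians of all 5 nuclear complexes and of the complex I assembly factors stayed below 0. The mtDNA-encoded median stayed above 0 in 19, turning to -0.05 in the 5 libraries with Xist under 1000. The filter settings and the fit without the covariate could not move these medians, and the pseudocounts hardly did, so their signs there add no support. The size of the medians depended on single libraries. Leaving out 1 at a time, the complex I to V medians spanned -0.47 to -0.28, -0.31 to -0.02, -0.44 to -0.19, -0.55 to -0.31 and -0.39 to -0.21, and the mtDNA-encoded one 0.11 to 0.35. Calls depended on the libraries. Without the removed direction as covariate, 426 genes were called (233 higher, 193 lower), 2 members lower and 1 higher. In the 6 libraries of the shared prefix 16 were called (8 higher, 8 lower), and with array weights 13 (5 higher, 8 lower), with 0 members in either. In the 5 libraries with Xist under 1000, 2194 were called (713 higher, 1481 lower), with 60 members lower and 1 higher. With a filter of 50, 21 genes were called higher. Leaving out 1 library at a time gave 21 to 346 genes (10 to 171 higher, 10 to 175 lower), with 0 to 3 members lower and 0 to 1 higher: 3 lower without ApcMin/+ replicate 2, 1 higher (mt-Atp8) without ApcMin/+ replicate 1 and 0 lower without any 1 knockout library. With copies added, 0 members were called lower. The cause was not tested.

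Signs turned for Atp5s under median-ratio scaling (0.018), equal sums over nuclear genes (0.037) and in the 5 libraries with Xist under 1000 (0.131), for Cox6b2 with array weights (-0.211) and for mt-Nd3 in the 5 libraries with Xist under 1000 (-0.019). Leaving out 1 library at a time spread Atp5s over -0.174 to 0.068, Cox4i2 over -0.011 to 0.361, Cox6b2 over -0.077 to 0.350, Cox7a1 over -0.271 to 0.011, Sdha over -0.297 to 0.0099 and Sdhd over -0.235 to 0.016. No paired analysis was possible because the replicate numbers only name the mice in accession order, and 1 knockout column carries none. The unknown depth limits what low genes such as Cox4i2 can show.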
